A study of Mus musculus with 2 samples.

Results

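The 45 genes described here encode the machinery that copies chromosomal DNA, and they were followed in the polyadenylated RNA of the mouse ovary. They were chosen by symbol, with earlier results of these data known. All 45 were found among the 43346 mouse genes of the deposited gene tables. By role, 9 act in licensing of replication origins, 12 form or activate the helicase, 20 form the polymerases and the other parts of the fork, and 4 supply nucleotides. The tissue was whole ovary of 8-week-old C57BL/6J females, which the labels describe as littermates, and no treatment, transgene or mutation is named. There was 1 group of 2 libraries, replicate 2 and replicate 1, and the only contrast possible was replicate 2 over replicate 1. The labels number them as biological replicates, yet both cite the same donor record, so the spread between them may be partly technical. The labels do not say whether ovaries were pooled.

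Before a cell enters S phase, the origin recognition complex (ORC), Cdc6 and Cdt1 load the ring-shaped Mcm helicase onto DNA, and geminin (Gmnn) restrains Cdt1. Cdc45 and the GINS complex then turn the ring into a moving helicase, with the help of Mcm10, and polymerases alpha, delta and epsilon copy the strands it exposes. In the ovary, granulosa cells of growing follicles divide often, whereas oocytes of the adult do not pass through S phase. E2F transcription factors are textbook regulators of many of these genes at the entry into S phase.

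Among the members with a RefSeq promoter, the letters of E2F elements were common. The 7 stretches shown here have matches before a RefSeq start, in licensing and helicase genes whose levels follow. The motif letters searched were TTTCGCGC, TTTGGCGC, TTTCCCGC and TTTGCCGC on either strand, which overlap one another at several places. Each line is 90 bases long, 5′ to 3′ on the strand of the gene, from build GRCm38.p6, with matches in capitals.
Mcm5 (chr8:75109316-75109405, + strand): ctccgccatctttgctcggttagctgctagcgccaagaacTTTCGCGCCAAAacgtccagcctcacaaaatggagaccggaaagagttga
Mcm6 (chr1:128359766-128359855, - strand): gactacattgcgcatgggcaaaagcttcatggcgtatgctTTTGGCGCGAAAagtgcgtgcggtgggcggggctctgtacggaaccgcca
Mcm7 (chr5:138171999-138172088, - strand): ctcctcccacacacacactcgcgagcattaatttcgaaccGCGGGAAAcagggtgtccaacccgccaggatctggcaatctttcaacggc
Gins3 (chr8:95633469-95633558, + strand): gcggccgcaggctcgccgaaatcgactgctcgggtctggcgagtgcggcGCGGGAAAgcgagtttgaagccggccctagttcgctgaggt
Orc1 (chr4:108579364-108579453, + strand): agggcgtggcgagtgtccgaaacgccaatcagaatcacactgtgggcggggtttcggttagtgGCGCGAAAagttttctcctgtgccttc
Cdc6 (chr11:98907973-98908062, + strand): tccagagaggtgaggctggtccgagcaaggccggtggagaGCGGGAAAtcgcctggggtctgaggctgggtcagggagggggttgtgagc
Orc3 (chr4:34614943-34615032, - strand): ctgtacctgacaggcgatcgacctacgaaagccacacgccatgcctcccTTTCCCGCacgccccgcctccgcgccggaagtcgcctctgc
In Mcm5 and Mcm6 a pair of matches on opposite strands overlap and form 1 run of capitals. Before the RefSeq start, the first match begins at 153 bases in Mcm5, 110 in Mcm6, 165 in Mcm7 and 41 in Gins3 and in Orc3. In Orc1 it begins at 27 bases and in Cdc6 at 138. By the gene bounds of the GENCODE annotation, the matches of Mcm7, Gins3, Orc1 and Cdc6 lie inside the gene. Another RefSeq start of Mcm7 had none of the letters.

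Promoters of 250 bases before to 50 bases after a start were at hand for 37 of the 45 members. Of these, 15 held the E2F letters, a share of 40.5%, against 2.60% of the 27025 genes with a promoter in the same table. Among protein-coding genes with enough counts to be tested here the share was 4.39%. In 9 of the 15 a match lay wholly before the RefSeq start. By role, 5 of 8 helicase promoters, 4 of 8 licensing promoters, 6 of 17 polymerase and fork promoters and 0 of 4 nucleotide supply promoters held the letters. CCAAT, a common promoter element, occurred in 23 of 37 members (62.2%), against 41.1% of all genes. The letters TTTGAA, which stand for the cell cycle homology region of mitotic genes, occurred in 5 members (13.5%), against 20.2% of all genes. Among tested protein-coding genes the share with TTTGAA was 14.3%, near that of the members. A match is a description of the letters and not a bound site.

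Most members were present at moderate levels in the ovary. Levels are in TPM, the share of a gene among all transcripts after division by their length, so genes can be set beside each other. The members summed to 975 TPM in replicate 2 and 1337 TPM in replicate 1. They took 35536 of 34930860 gene counts in replicate 2, or 0.102% (95% Wilson interval 0.101% to 0.103%), and 55954 of 41124061 in replicate 1, or 0.136% (0.135% to 0.137%). These intervals cover counting error only and do not measure the spread between libraries. In both libraries 38 of 45 members reached a TPM of 1, or 84.4%, where 62.0% of 21474 protein-coding genes did. The median of the members' mean TPM was 12.1, and that of protein-coding genes was 4.45. The remaining 7 were Gmnn, Orc1, Cdc6, Gins3, Pola1, Rfc4 and Rpa3. In whole tissue, fewer cells of a type and less RNA per cell cannot be told apart.

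**Figure D1:**
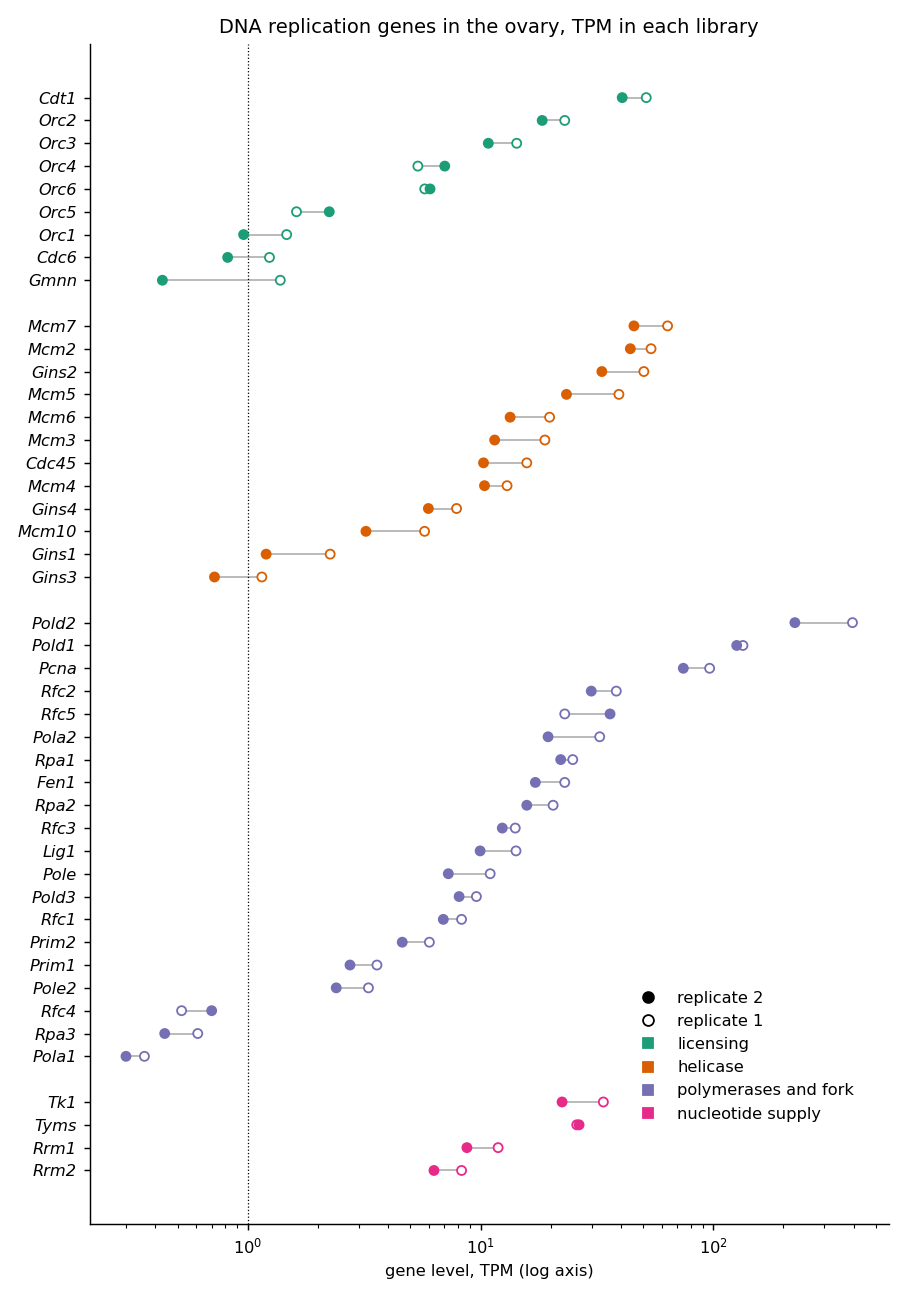
TPM of each of the 45 members on a log axis, filled points for replicate 2 and open points for replicate 1, grouped by role and ordered by mean; the dotted line is a TPM of 1. Pold2 stood highest at 224 and 396 TPM and Pola1 lowest at 0.30 and 0.360 TPM, in replicate 2 and replicate 1.

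Among the licensing genes, Cdt1, which brings the Mcm ring to origins, stood highest. It had 40.6 TPM in replicate 2 and 51.5 TPM in replicate 1. Cdc6, the ATPase that loads the ring together with ORC and Cdt1, had 0.820 and 1.24 TPM in replicate 2 and replicate 1. Gmnn, the inhibitor of Cdt1, had 0.430 TPM in replicate 2 and 1.38 TPM in replicate 1, from 8 and 30 counts. The loader Cdc6 and the inhibitor Gmnn were thus both measured far below Cdt1 in each library.

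The 6 subunits of ORC, which marks origins, spread over a 19.2-fold range of TPM in replicate 2 and 15.6-fold in replicate 1. Orc2 was highest, at 18.4 TPM in replicate 2 and 23.0 TPM in replicate 1, and Orc1, an ATPase subunit, was lowest, at 0.960 and 1.47 TPM. Orc3 (10.8 and 14.3 TPM), Orc4 (7.02 and 5.38 TPM), Orc6 (6.07 and 5.76 TPM) and Orc5 (2.24 and 1.62 TPM) lay between, each with replicate 2 named first. The ranges of Orc4 and Orc6 overlapped, as did those of Orc1, Cdc6 and Gmnn, so their order is not settled by these libraries. The other neighbours in the licensing order did not overlap by gene TPM. Over protein-coding transcripts alone the order was different. Orc3 then had 1.77 TPM in replicate 2 and 3.07 TPM in replicate 1, overlapping Orc4 at 2.07 and 2.53 TPM and below Orc6 at 6.06 and 5.76 TPM. Orc2 stayed highest on that scale only with a 370-base coding transcript, and its full-length transcript had 6.21 and 4.77 TPM.

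The helicase genes were closest in level within the Mcm ring itself. The ring is built of Mcm2 to Mcm7 in equal numbers, and its highest and lowest genes, Mcm7 and Mcm4, differed 4.39-fold in replicate 2 and 4.90-fold in replicate 1. Mcm7 had 45.6 TPM in replicate 2 and 63.6 TPM in replicate 1, and Mcm2 had 44.0 and 54.0 TPM. Mcm5 had 23.4 TPM in replicate 2 and 39.3 TPM in replicate 1. Mcm6 (13.4 and 19.8 TPM), Mcm3 (11.5 and 18.9 TPM) and Mcm4 (10.4 and 13.0 TPM) lay lower. Cdc45, the helicase activator, had 10.3 TPM in replicate 2 and 15.8 TPM in replicate 1. In the order Mcm6, Mcm3, Cdc45, Mcm4, each overlapped the next in range. Mcm10 had 3.22 TPM in replicate 2 and 5.75 TPM in replicate 1.

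The 4 subunits of GINS, which also occur in equal numbers in the complex, spread far more widely on the gene scale. Gins2 had 33.2 TPM in replicate 2 and 50.3 TPM in replicate 1, and Gins3 had 0.720 and 1.15 TPM, a ratio of 46.1-fold and 43.7-fold. Most of the TPM of Gins2 was assigned to 1 short transcript. Gins2-204, a transcript of 511 bases annotated as a retained intron, held 91.4% of the gene's TPM in replicate 2 and 92.2% in replicate 1. Of the gene's counts it held 47.9% and 48.0%. Over protein-coding transcripts alone, Gins2 had 0.910 TPM in replicate 2 and 2.90 TPM in replicate 1. On that scale the highest and lowest GINS genes, Gins4 and Gins3, differed 8.29-fold in replicate 2 and 6.86-fold in replicate 1. Gins4 had 5.97 and 7.89 TPM and Gins1 had 1.20 and 2.26 TPM in replicate 2 and replicate 1.

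Polymerase delta, which copies mainly the lagging strand, held the highest levels of all members. Pold2, its accessory subunit, had 224 TPM in replicate 2 and 396 TPM in replicate 1, on average 309.8 ± 122 TPM (SD, n = 2). It lies on chromosome 11 at 5872180 to 5878292 of mm10 (ENSMUSG00000020471.7). Pold1, the catalytic subunit, had 126 TPM in replicate 2 and 134 TPM in replicate 1, and Pold3 had 8.09 and 9.60 TPM. Pcna, the sliding clamp that holds polymerase delta on DNA, had 74.3 TPM in replicate 2 and 96.4 TPM in replicate 1.

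Most of the TPM of Pold2 was assigned to a short non-coding form. Pold2-202, a processed transcript of 342 bases, held 69.5% of the gene's TPM in replicate 2 and 73.1% in replicate 1, from 524 and 981 counts. The coding transcript Pold2-201, of 1646 bases, had 66.2 TPM in replicate 2 and 104 TPM in replicate 1, from 2346 and 4353 counts. Of Pold1, protein-coding transcripts held 29.9% of the TPM in replicate 2 and 33.0% in replicate 1, and retained introns were the most abundant other type. That left Pold1 with 37.7 and 44.1 TPM of coding RNA, below Pcna at 74.2 and 96.1 TPM in replicate 2 and replicate 1.

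Polymerase alpha with its primase, which starts each new strand, had the widest spread among the complexes on the gene scale. Pola2, a non-catalytic subunit, had 19.5 TPM in replicate 2 and 32.5 TPM in replicate 1. Pola1, the catalytic subunit, had 0.30 TPM in replicate 2 and 0.360 TPM in replicate 1, from 38 and 54 counts on a transcript of 5346 bases. The ratio of Pola2 to Pola1 was 65.0-fold in replicate 2 and 90.1-fold in replicate 1. Prim2 had 4.61 and 6.03 TPM and Prim1, the catalytic primase subunit, had 2.75 and 3.59 TPM in replicate 2 and replicate 1. Polymerase epsilon, which copies mainly the leading strand, was measured through 2 subunits, and Pole exceeded Pole2 only 3.03-fold in replicate 2 and 3.35-fold in replicate 1. Pole had 7.27 and 11.0 TPM and Pole2 had 2.40 and 3.30 TPM.

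The clamp loader and the single-strand binding complex RPA each had 1 subunit near the lower limit. Of the clamp loader, which opens Pcna and places it on DNA, Rfc2 had 29.9 TPM in replicate 2 and 38.3 TPM in replicate 1, Rfc5 had 36.0 and 23.0 TPM, Rfc3 had 12.4 and 14.1 TPM and Rfc1 had 6.92 and 8.29 TPM. Rfc4 had 0.700 and 0.520 TPM, from 5 and 6 counts. Of RPA, Rpa1 had 22.1 TPM in replicate 2 and 24.9 TPM in replicate 1, and Rpa2 had 15.8 and 20.5 TPM. Rpa3 had 0.440 and 0.610 TPM, from 5 and 8 counts. The low values of Rfc4 and Rpa3 were shared by both libraries.

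Of the enzymes that finish the lagging strand, Fen1, a flap endonuclease, had 17.2 TPM in replicate 2 and 23.0 TPM in replicate 1. Lig1, the ligase that seals the nicks, had 9.96 and 14.2 TPM. A processed transcript of 2968 bases, Lig1-207, held 89.6% of the TPM of Lig1 in replicate 2 and 93.3% in replicate 1. The protein-coding transcripts of Lig1 were listed at 0 in replicate 2 and at 0.780 TPM in replicate 1.

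Among the nucleotide supply genes, Tk1 and Tyms, which make thymidine nucleotides, stood above the subunits of ribonucleotide reductase on the gene scale, and over protein-coding transcripts only Tk1 did. Tk1 had 22.4 TPM in replicate 2 and 33.7 TPM in replicate 1, and Tyms had 26.5 and 25.9 TPM. Rrm1, the large subunit of the reductase, had 8.74 and 11.9 TPM, and Rrm2, the small subunit, had 6.31 and 8.29 TPM. Tk1 and Tyms overlapped in range, and the other neighbours in this order did not. Over protein-coding transcripts alone, Tk1 had 12.5 TPM in replicate 2 and 21.9 TPM in replicate 1, and Tyms had 5.16 and 4.91 TPM, below Rrm1 and Rrm2. Over all roles, by gene TPM, 20 of 41 neighbouring members were separated by more than the range of the libraries.

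How much of a member's level was coding RNA varied strongly. The 36 members with several annotated transcripts and the other 9 had 222 transcripts in all. In 10 of the 36 the leading transcript was not of protein-coding type, and it was a retained intron in 6 and a processed transcript in 4. Protein-coding transcripts held under 50% of the TPM in 11 members and over 90% in 24. Transcript types came from GENCODE M21, and 10 transcripts without a match there are not counted as coding. A 1953-base transcript of this kind held 22.5% of the TPM of Rfc1 in replicate 2 and 20.5% in replicate 1. The members with a single annotated transcript, such as Mcm2, Mcm4 and Mcm5, are among those over 90% by construction. Short transcripts divide by a small effective length, so few reads give a high TPM, and how the authors' quantifier shared reads between transcripts could not be checked here. Counted by its share of reads, the leading transcript was non-coding in 6 members.

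**Figure D2:**
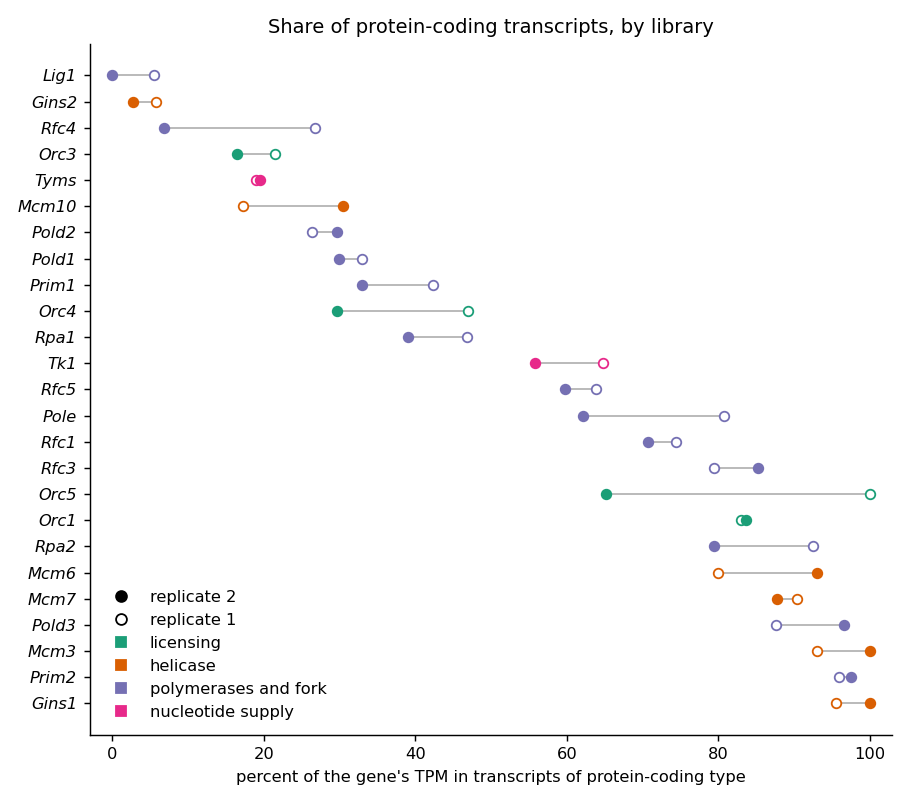
Percent of each gene's TPM held by transcripts of protein-coding type, for members with several transcripts and a mean share under 99%, with filled points for replicate 2 and open points for replicate 1. Lig1 and Gins2 lie at the low end in both libraries, and Orc5 differs most, with 65.2% in replicate 2 and 100% in replicate 1.

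Some members were carried by different transcripts in the libraries, and for Orc2 the direction of the difference turned with the unit. Of Orc2, a 370-base coding fragment, Orc2-205, held 66.3% of the TPM in replicate 2 and 79.2% in replicate 1, from 49.6 and 76.7 counts. The full transcript Orc2-201 had 6.21 TPM in replicate 2 and 4.77 TPM in replicate 1. Its counts, 512 and 470.3, made up most of the gene's counts, so Orc2 was lower in replicate 2 by TPM and higher by scaled counts. In Cdc6 and Fen1 the leading coding transcript differed between the libraries. Fen1-201 had 5.13 TPM in replicate 2 and 12.3 TPM in replicate 1, and Fen1-202 had 8.49 and 7.80 TPM. Of Rfc5, a 772-base coding transcript, Rfc5-202, had 18.4 TPM in replicate 2 and 8.13 TPM in replicate 1, and the 2796-base transcript Rfc5-201 had 3.11 and 6.56 TPM.

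Members with GC-rich transcripts stood higher. Across the 45 members, Spearman's rho between the GC content of the leading transcript and mean TPM was 0.74. Across 21449 protein-coding genes it was 0.51, and with members' TPM over protein-coding transcripts it was 0.62 (n = 45). These are descriptions across genes of the same 2 libraries, and genes are not independent replicates. Rpa3 (40.4% GC), Pola1 (41.5%) and Rfc4 (42.5%) were the 3 lowest in level, and Pold2 (62.0%) and Pold1 (60.7%) the 2 highest. In 10 members, Pold2, Rfc4 and Orc4 among them, the leading transcript was not of protein-coding type. The GC content given for these 10 is therefore not that of the coding transcript. Protein-coding genes of 38% to 42% GC had a median of 0.0250 TPM, below Rpa3 and Pola1, and those of 58% to 62% a median of 30.4 TPM. Pcna, with 45.3% GC, and Orc4, with the lowest GC of the members at 36.6%, lay well above the median of their GC range. The part of GC content in the low values of Rpa3, Pola1 and Rfc4 was not tested.

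**Figure D3:**
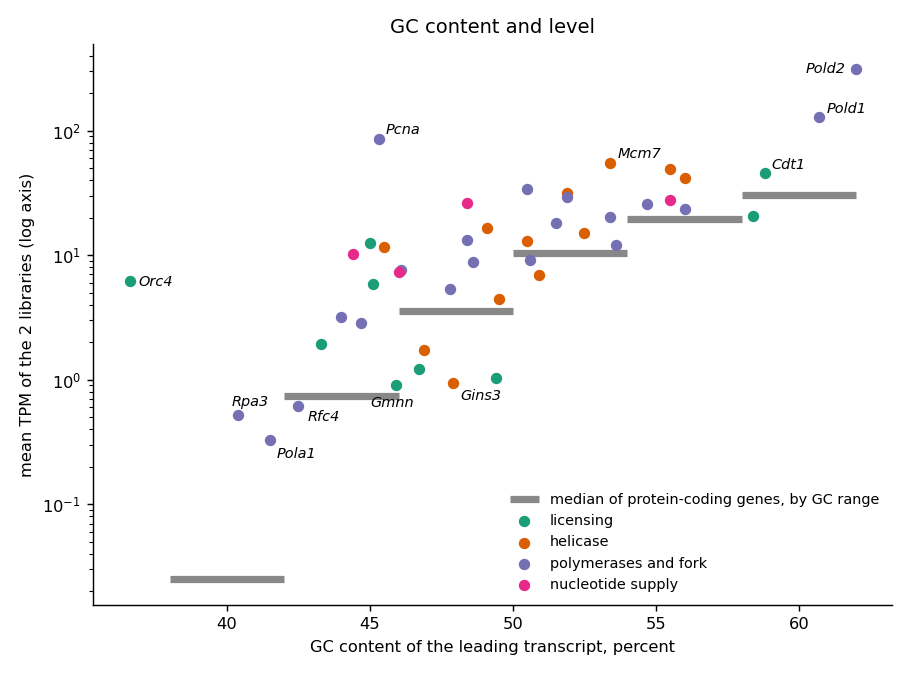
Mean TPM of the 2 libraries on a log axis against the GC content of the leading transcript, one point per member, with grey bars at the median of protein-coding genes in each GC range. Members of higher GC content stand higher, as the grey bars do, with Pcna far above its bar; the range below 38%, which holds Orc4, had a median of 0 and no bar.

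Between the libraries, the replication genes were mostly lower in replicate 2. Counts were compared per gene by a two-sided exact binomial test with Benjamini-Hochberg adjustment at 0.05 over the 15939 genes whose count averaged 20 or more. With 1 library on each side there is no replicate check, and the test compares the reads of these libraries and not conditions. Of the 42 members tested, 28 were lower in replicate 2 (66.7%), against 27.0% of all genes tested. Another 2 members were higher, Orc2 and Orc4, against 29.1% of all genes, and 12 did not pass. The median log2 ratio of the members was -0.34, and that of all genes -0.0056. In size the differences were modest: none of the 42 reached 2-fold, against 1.71% of all genes that were at least 2-fold lower and 2.28% that were at least 2-fold higher.

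These directions are relative to the other genes. Scaled to the ERCC spike-ins, RNAs of known amount added to each sample, the median of all genes was -0.44 and that of the members -0.78. On that scale 39 members were lower and 0 higher, with 71.7% of all genes lower and 7.16% higher. A scaling shifts every gene alike, so it leaves the difference of -0.34 between the members' median and that of all genes in place by construction. That difference was -0.30 on log2(TPM + 1) and -0.31 with the trend on GC content and length removed. With library totals in place of TMM, 31 members were lower and 2 higher, with 34.6% of all genes lower and 23.6% higher. Over all 15939 genes the quartiles of the log2 ratio were -0.22 and 0.24. Of the members, 29 lay below the lower quartile and 2 above the upper. In 36 of 42 members the ratio was below 0, as in 50.8% of all genes tested.

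**Figure D4:**
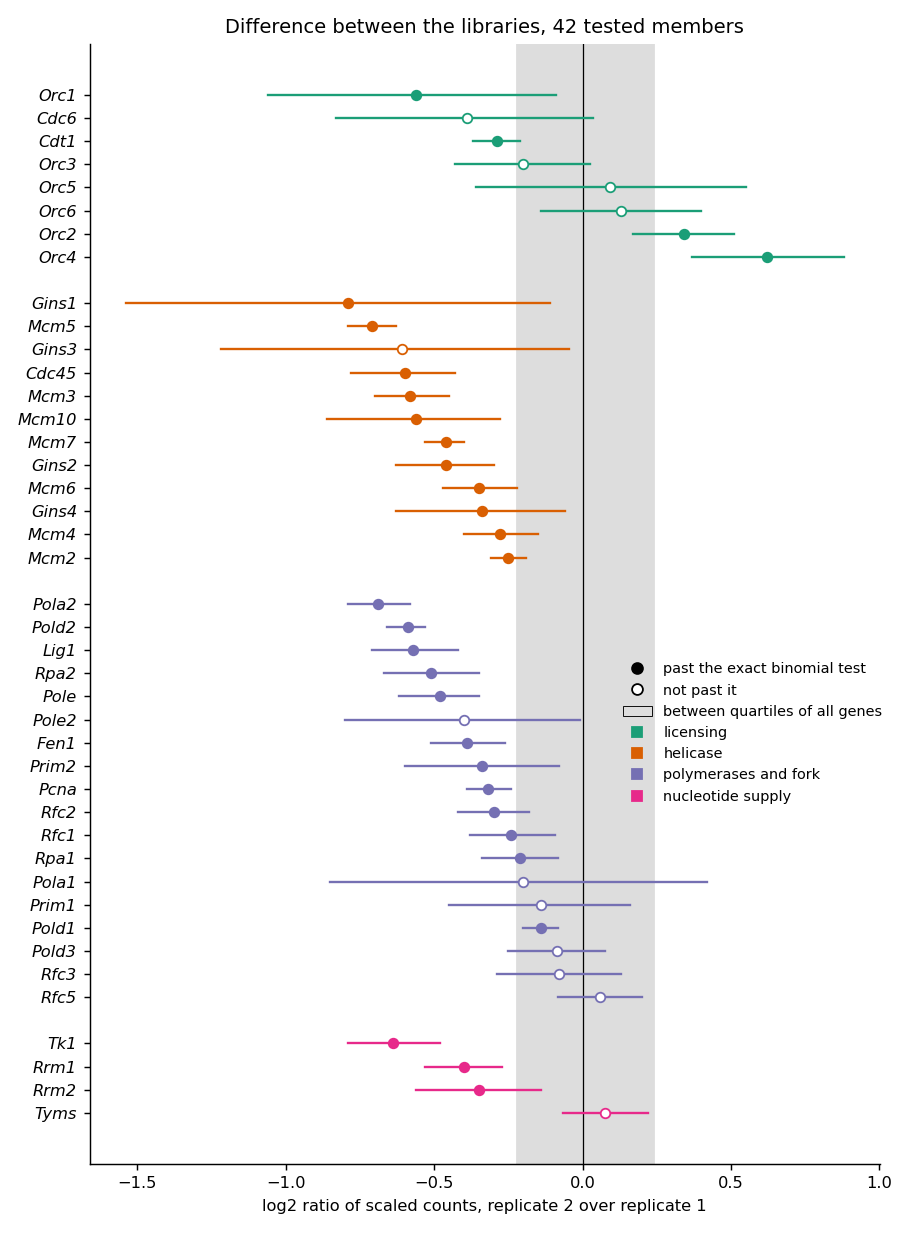
Log2 ratio of scaled counts, replicate 2 over replicate 1, for the 42 members tested, with 95% intervals that cover counting error only; filled points passed the exact binomial test, and the grey band spans the quartiles of all genes, -0.22 to 0.24. The 12 helicase genes all lie left of 0, and Orc2 and Orc4 are the 2 filled points right of it.

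The helicase genes differed most uniformly. In replicate 2, 11 of 12 were lower by the exact binomial test, and their median log2 ratio was -0.51. All 6 genes of the Mcm ring were among them, with ratios from -0.71 to -0.25. Mcm5 had 1847 counts in replicate 2 and 3708 in replicate 1, a log2 ratio of -0.71 (95% counting interval -0.79 to -0.63, adjusted p = 8.30e-68). Its ratio lay among the lowest 4.36% of all genes tested. Mcm3 (-0.58), Mcm7 (-0.46), Mcm6 (-0.35), Mcm4 (-0.28) and Mcm2 (-0.25) followed. Cdc45 stood at -0.60 and Mcm10 at -0.56. Retained introns held 69.5% of the TPM of Mcm10 in replicate 2 and 82.8% in replicate 1. Over protein-coding transcripts alone, Mcm10 hardly differed, with 0.980 TPM in replicate 2 and 1.00 TPM in replicate 1. Mcm4, Mcm10, Gins1 and Gins4 did not pass under Bonferroni adjustment.

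Of the GINS genes, Gins1 (-0.79), Gins2 (-0.46) and Gins4 (-0.34) were lower in replicate 2. Gins1 had only 26 counts in replicate 2 and 56 in replicate 1, and its interval ran from -1.54 to -0.11. Gins3, with 39 and 74 counts, stood at -0.61 and did not pass (adjusted p = 0.0522, exact binomial test).

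Licensing genes showed no common direction. Of 8 tested, 2 were lower in replicate 2, 2 were higher and 4 did not pass, and their median log2 ratio was -0.054. Orc4 had 296 counts in replicate 2 and 236 in replicate 1, a log2 ratio of 0.62 (0.37 to 0.88, adjusted p = 2.23e-06, exact binomial test), which became 0.19 and no longer passed on the spike-in scale (adjusted p = 0.153, where the alternatives ranged from 1.79e-06 to 0.153). Orc2 stood at 0.34 (0.17 to 0.51, adjusted p = 0.000271, exact binomial test), and at -0.10 on the spike-in scale. Neither Orc2 nor Orc1, described next, passed under Bonferroni adjustment. Orc1 stood apart from these partners in its complex, with 57 counts in replicate 2 and 104 in replicate 1 and a log2 ratio of -0.56 (-1.06 to -0.089, adjusted p = 0.0323). By counting error alone, the interval of Orc1 overlapped neither that of Orc2 nor that of Orc4, under any scaling of the libraries. The spread beyond counting error was left out, and the difference between them was not tested further. The contrast with Orc2 depended on the unit: on log2(TPM + 1), Orc1 stood at -0.33, Orc2 at -0.30 and Orc4 at 0.33. Over protein-coding transcripts alone, Orc4 was lower in replicate 2, at 2.07 TPM against 2.53 TPM in replicate 1. The processed transcript Orc4-207 held 75.8% of the counts of Orc4 in replicate 2 and 64.3% in replicate 1.

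Orc5 (0.092), Orc6 (0.13) and Orc3 (-0.20) did not pass, and the positive values of Orc5 and Orc6 turned to -0.34 and -0.30 on the spike-in scale. Cdt1 was lower at -0.29, and Cdc6 stood at -0.39 without passing (adjusted p = 0.115, exact binomial test). Gmnn lay below the count minimum. Tested without that minimum, its 8 and 30 counts gave a log2 ratio of -1.51 (adjusted p = 0.00887, exact binomial test over all genes with a count), and Rfc4 and Rpa3 did not pass.

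Among the 18 polymerase and fork genes tested, 12 were lower in replicate 2 and 6 did not pass, with a median log2 ratio of -0.31. Pola2 had 1063 counts in replicate 2 and 2106 in replicate 1, a log2 ratio of -0.69 (adjusted p = 3.94e-37, exact binomial test). Its partners Prim2 (-0.34), Pola1 (-0.20) and Prim1 (-0.14) stood closer to 0, and of these only Prim2 passed. Pold2 was lower at -0.59 (adjusted p = 3.09e-72, exact binomial test), and Pold1 at -0.14, which became -0.33 with the trend on GC content and length removed. Lig1 (-0.57), Rpa2 (-0.51), Pole (-0.48), Fen1 (-0.39), Pcna (-0.32), Rfc2 (-0.30), Rfc1 (-0.24) and Rpa1 (-0.21) were also lower, and of the 12 Prim2, Rfc1 and Rpa1 did not pass under Bonferroni adjustment.

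The members that did not pass here were Pole2 (-0.40), Pold3 (-0.085), Rfc3 (-0.079) and Rfc5 (0.060) beside Pola1 and Prim1, and Rfc5 turned to -0.37 on the spike-in scale. Rfc5 is a case where the scales part: its counts, 742 in replicate 2 and 876 in replicate 1, gave a ratio near 0 after scaling, whereas its TPM was higher in replicate 2. Of the nucleotide supply genes, Tk1 (-0.64), Rrm1 (-0.40) and Rrm2 (-0.35) were lower, Rrm2 not under Bonferroni adjustment. Tyms, with 751 counts in replicate 2 and 876 in replicate 1, stood at 0.077 and did not pass, and at -0.36 on the spike-in scale it did.

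Members lower in replicate 2 occurred both with and without the E2F letters in the promoter. Of 15 tested with the letters, 8 were lower in replicate 2 and 0 higher, with a median log2 ratio of -0.39. Of 20 tested without them, 13 were lower and 2 higher, with a median of -0.28. Among tested protein-coding genes, 35.0% of 503 with the letters were lower, with a median of -0.066, and 27.7% of 10960 without them, with a median of -0.0048. Tk1, Pola2 and Pold2, all lower in replicate 2, held no such letters in the window searched, and neither did Orc2 and Orc4.

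The position of the members in the genome added a second set of values. They lay on 14 chromosomes, with 8 of the 45 on chromosome 5. The start of a protein-coding gene on the other strand lay within 1000 bases of the start of 13 members, such as Prpf38a at 87 bases from Orc1, Rars2 at 13 bases from Orc3 and Prkdc at 466 bases from Mcm4. These neighbours were looked up after the members' values were known. Of 13 such neighbours tested, 4 were lower in replicate 2, 1 was higher and 8 did not pass the exact binomial test, where 27.0% of all genes tested were lower and 29.1% higher. Afmid, a kynurenine pathway enzyme whose start lies 168 bases from that of Tk1, had a log2 ratio of -0.64 (adjusted p = 3.14e-06, exact binomial test), as Tk1 did. Umad1, 115 bases from Rpa3, had 244 counts in replicate 2 and 297 in replicate 1, where Rpa3 had 5 and 8.

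Some members share sequence or position with other annotated transcripts, which limits their values. In 12 members a protein-coding gene overlaps on the other strand, among them Vps35 at Orc6, Cops6 at Mcm7 and Ufd1 at Cdc45, and the libraries are stranded per the labels. Cdt1 is overlapped on its own strand by the long gene model Gm20388, which had 57.5 TPM in replicate 2 and 66.3 TPM in replicate 1, and how reads were shared between them could not be checked. The processed pseudogene Pcna-ps2 took 10.1 counts in replicate 2 and 11.2 in replicate 1, and Pcna-ps1 took 0 in each. Adding them to Pcna changed no call.

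Other genes of the same process differed in both directions. Of 30 other fork and origin factors, 13 were lower in replicate 2 and 5 higher by the exact binomial test, with a median log2 ratio of -0.11. Rnaseh2a, the catalytic subunit of an enzyme that removes RNA from DNA, had 1374 counts in replicate 2 and 2309 in replicate 1 and was lower at -0.45. Chaf1b, a subunit of the histone chaperone CAF-1, was lower at -0.77. Chtf8 was lower at -0.071, and Pold4, the small subunit of polymerase delta, was higher at 0.18. Top1, a topoisomerase that relieves torsion, was higher at 0.72, with 31.5 TPM in replicate 2 and 19.6 TPM in replicate 1.

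Of 12 other nucleotide supply genes, 5 were lower and 3 higher, with a median of -0.0070. Among them Nme1 (-0.75), Dctpp1 (-0.16) and Nme2 (-0.077) were lower. Nme1, a nucleoside diphosphate kinase, had 55.0 TPM in replicate 2 and 93.0 TPM in replicate 1.

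The regulators of the entry into S phase were evenly divided. Of 29 tested, 10 were lower in replicate 2 and 10 higher by the exact binomial test, with a median log2 ratio of -0.067. That is 34.5% on each side, where 27.0% of all genes tested were lower and 29.1% higher. Cdk4, a kinase of G1, was lower at -0.22 and had 364 TPM in replicate 2 and 448 TPM in replicate 1. Ccnd3, a cyclin partner of Cdk4, was higher at 0.45. The repressor E2f8 was lower at -0.77, E2f5 was higher at 0.73, and E2f4 stood at -0.045 without passing.

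Mitotic genes were mostly lower in replicate 2, with the same median as the helicase genes. Of 24 tested, 18 were lower and 0 higher by the exact binomial test, with a median log2 ratio of -0.51. Cdc20, which activates the ubiquitin ligase of anaphase, had 36.9 TPM in replicate 2 and 66.5 TPM in replicate 1 and stood at -0.80. Prc1 (-0.80), Ube2c (-0.68) and Cdk1 (-0.58) were also lower.

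**Figure D5:**
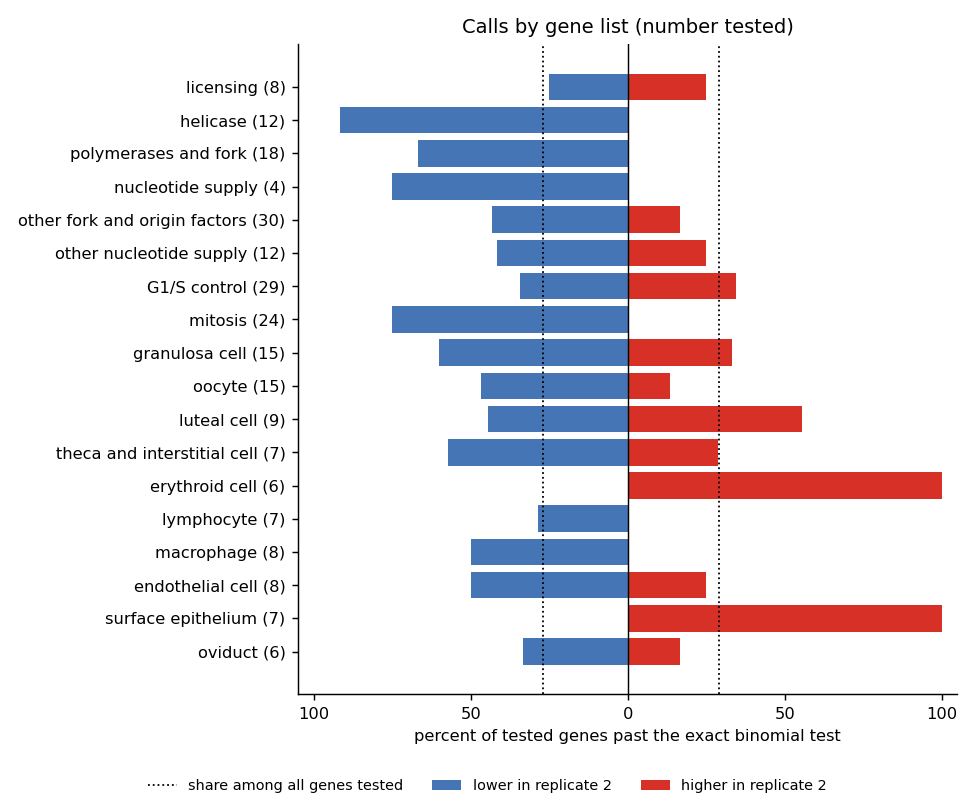
Percent of the tested genes of each list that were lower (left) or higher (right) in replicate 2 by the exact binomial test, with the number tested in brackets; dotted lines mark the shares among all genes tested, 27.0% and 29.1%. Helicase genes reach furthest to the left, nucleotide supply and mitotic genes follow, and none of these is higher, and erythroid and surface epithelial markers lie wholly to the right.

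Markers of the ovary's cell types, and of the oviduct, were present and differed between the libraries as well. Whether the samples held oviduct tissue was not tested. All 15 granulosa cell markers reached a TPM of 1, and summed to 7782 TPM in replicate 2 and 9044 TPM in replicate 1, with 9 lower and 5 higher. Inha, the inhibin alpha subunit, was lower at -0.18, Nr5a2 was lower at -0.65, and Amh was higher at 0.21. Of 15 oocyte markers tested, 7 were lower and 2 higher, and all 16 summed to 658 and 757 TPM in replicate 2 and replicate 1. The 8 erythroid markers summed to 2255 TPM in replicate 2 and 1086 TPM in replicate 1, with 6 of 6 tested higher. The 7 surface epithelium markers summed to 974 and 712 TPM, with all 7 higher in replicate 2.

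The 11 lymphocyte markers summed to 35.8 TPM in replicate 2 and 59.7 TPM in replicate 1, with 2 of 7 tested lower. Ighm alone made up most of these sums, with 23.4 TPM in replicate 2 and 47.0 TPM in replicate 1. The 8 macrophage markers summed to 586 and 736 TPM, with 4 lower. Luteal (4 lower, 5 higher of 9; 4834 and 5198 TPM), theca and interstitial (4 and 2 of 7; 2557 and 2048 TPM), endothelial (4 and 2 of 8; 933 and 919 TPM) and oviduct markers (2 and 1 of 6; 764 and 841 TPM) had members on both sides. The higher theca and interstitial sum in replicate 2 rested on Fdx1, with 1211 TPM in replicate 2 and 470.1 TPM in replicate 1. The median log2 ratio was -0.18 for granulosa cell markers and 0.94 for erythroid markers, where it was -0.51 for the helicase genes. The part of the tissue's cell makeup in the difference of the replication genes was not tested.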

How the data were processed

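Stranded paired-end reads of 76 bases came from rRNA-depleted poly(A)+ RNA above 200 nucleotides, per the labels. The gene and transcript tables are on mm10 with GENCODE M4, per the file headers and notes. Aligner and quantifier names, not given in the sources used here, stay unknown. Expected counts per gene and transcript are the values as the authors deposited them. The authors deposited TPM and FPKM, which divide by effective length. The authors deposited each transcript's percent of its gene. Tables on an older build, and protein sequences, were not used here.

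Names, coordinates and transcript types came from GENCODE M21 and promoters from RefSeq (GRCm38.p6). ERCC spike-ins made up 0.986% of all counts in replicate 2 and 0.764% in replicate 1, and were left out of library sizes. Expected counts were rounded, and library sizes came from TMM (edgeR 4.0.16 under R 4.3.3). A count test with replicates was not possible, so an exact binomial test per gene was used, with a prior count of 1 for log2 ratios. The step was tested on simulated counts that held counting error only. Between the real libraries the chi-square per degree of freedom was 75.0, so their spread exceeded counting error. The simulation did not cover that excess, and the p-values do not measure it. Alternatives were DESeq2 1.42.0 size factors, other scalings, filters and units, a GC and length correction, and the replicates left out in turn. Other steps used Python 3.11.15, scipy 1.17.1 and pandas 2.3.3. Intervals and floors cover counting error only, since reads carry no molecular identifiers. No column was unmapped, and rows of no gene other than the spike-ins took 0 counts.

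The members and gene lists were chosen with earlier results of these data known. All 45 members are named, and 2 genes of the other lists are not reported here. Of each other list, the genes eligible for naming were the 3 highest by mean TPM and the 2 with the largest absolute log2 ratio among genes averaging 100 counts or more; transcripts were eligible at 20% or more of their gene.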

Additional observations from a re-analysis of the deposited data

How the results depend on the processing

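No paired analysis was possible because the study has 1 group. The count of 28 lower members stayed within 1.5 times under every scaling, filter, unit and adjustment with a test, at the highest 39 on the spike-in scale and at the lowest 19 under Bonferroni adjustment. The share of all tested genes that were lower moved as well. It was 27.0% in the main setting, 71.7% on the spike-in scale and 12.4% under Bonferroni adjustment, so the count alone does not measure the members' stability. The median log2 ratio of -0.34 became -0.41 with library totals, -0.78 on the spike-in scale and -0.32 with the trend on GC content and length removed. The 2 higher members became 0 on the spike-in scale and 1 under Bonferroni adjustment, and a 2-fold rule left 0 lower and 0 higher. Of all tested genes, 29.1% were higher in the main setting, 7.16% on the spike-in scale and 17.5% under Bonferroni adjustment. The sign turned to -0.0041 for Rfc5 with library totals, to -0.36 for Tyms, -0.10 for Orc2, -0.34 for Orc5, -0.37 for Rfc5 and -0.30 for Orc6 on the spike-in scale, and to -0.30 for Orc2 on log2(TPM + 1). These follow from the shift of the scale, except for the last, where a short transcript carries most of the TPM. The median TPM of 12.1 became 7.30 over protein-coding transcripts, an alternative chosen after seeing the data, and then 11 of 45 members kept their place in the order. Leaving out a replicate gave a median TPM of 10.3 to 14.1, 38 to 42 members at a TPM of 1, a median percentile among protein-coding genes of 61.4 to 65.5, 34 to 35 members at their place, and 10 members with a non-coding leading transcript. By share of counts that last number was 6. The letters TTTCGCGC alone occurred in 6 of 37 members (16.2%), against 0.374% of all genes and 0.672% of tested protein-coding genes. The core GCGC occurred in 34 members (91.9%), against 49.4% of all genes and 78.0% of tested protein-coding genes. Depth limits Gmnn, Rfc4 and Rpa3, whose counts were 30 or fewer in each library.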

Other observations

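Pold3 had a posterior mean TPM that departed from its TPM in replicate 2 only. The authors' posterior mean was 43.9 TPM in replicate 2, against a TPM of 8.09, and the interval deposited with it ran from 7.89 to 115. A transcript of 186 bases with 0 counts in both libraries carried 35.3 TPM of that posterior mean. Mcm7 hosts 3 microRNA genes in an intron, Mir25, Mir93 and Mir106b, which had 0 counts in both libraries of RNA above 200 nucleotides.

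Within the polymerase alpha complex, levels parted by subunit. Pola2 was at 26.0 ± 9.16 TPM and Pola1 at 0.330 ± 0.0424 TPM (SD, n = 2 each), and their log2 ratios were -0.69 and -0.20. The counting interval of Pola1, -0.85 to 0.42, includes the value of Pola2, so a difference between them was not detectable at this depth.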
